A study of Bos taurus with 10 samples.

Results

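Genes of the hypoblast, the endoderm layer of the blastocyst, were examined in single bovine embryos with and without *SOX2*. The set holds 8 genes named by symbol, namely the transcription factors *GATA6*, *GATA4*, *HNF4A*, *FOXA1* and *FOXA2*, the receptor *PDGFRA*, its ligand *PDGFA* and the endocytic adaptor *DAB2*. A row of the expression table was found for 7 of the 8, out of 20112 genes in all. *FOXA1* was not analysed here. The 5 WT embryos were injected as zygotes with mRNA of BE3 alone, a base editor that turns C into T. The 5 *SOX2* KO embryos received BE3 mRNA together with sgRNAs that write premature stop codons into *SOX2*, so both groups carried the editor. WT embryos are named nc1 to nc5 and *SOX2* KO embryos ko1 to ko5 here, and values are given in that order. All 10 were early blastocysts aged 7.0 days after fertilization by their labels, and the study's methods name a slightly later time of collection. Each library came from 1 whole embryo, and the embryos were genotyped by the study from part of the cDNA, so editing that differs between the cells of an embryo would not be seen in these values.

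The hypoblast, also called primitive endoderm, segregates from the epiblast inside the inner cell mass and later lines the blastocoel and the yolk sac. In mouse embryos *GATA6* is present before these fates separate, whereas *GATA4*, *SOX17* and *HNF4A* mark later steps, and *PDGFRA* is a surface receptor of the cells that take the hypoblast fate. Hypoblast cells deposit a basement membrane towards the epiblast and take up and secrete lipid and vitamin carriers, a process in which the adaptor *DAB2* serves the megalin receptor *LRP2*.

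Each WT library held between 2223670 and 5134855 reads on genes and each *SOX2* KO library between 2578284 and 4337342, and 3 reads or fewer in a library were taken as the floor of detection. The 18S ribosomal RNA gene *RN18S1* took between 26.4% and 37.0% of reads in WT embryos and between 32.5% and 45.0% after *SOX2* KO. *SOX2* itself was 56.5, 93.4, 83.5, 73.0 and 84.4 normalized read counts in WT and 39.0, 26.4, 64.0, 82.1 and 71.5 in *SOX2* KO embryos. The groups overlapped (limma, log2 fold change -0.55, SE 0.27, Benjamini-Hochberg adjusted p = 0.167). A premature stop codon leaves the gene in place, so the mRNA level does not check the edit. Transcript lengths were not available, so levels were compared between embryos and never between genes. No sequence of the genes was at hand, and none is shown.

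Among the hypoblast genes, *HNF4A* and *PDGFRA* fell in *SOX2* KO embryos, *GATA6*, *GATA4* and *DAB2* showed no difference that passed the test, and *PDGFA* passed the test with a rise of less than 2-fold. A gene was called when limma gave an adjusted p no higher than 0.05 and its level differed by 2-fold or more in either direction. Of the 7 genes, 2 were called lower, against 232 of 20056 tested genes (1.16%). None of the 7 was called higher in limma, nor in DESeq2 or edgeR, against 1792 genes (8.93%), and 2 of them, *PDGFA* and *FOXA2*, were higher at an unadjusted p under 0.05. In all, 10.1% of all tested genes were called in either direction. The adjusted p alone was passed by 3 of the 7 genes and by 13.6% of all genes. In 3 of the 7 genes, and in 9.17% of all genes, the values of the groups did not overlap. The median log2 fold change was -0.12 over the 7 genes and 0.25 over all tested genes. Except for *FOXA2*, with a mean of 3.09 over the 10 embryos, the 7 genes had means of at least 10. With the test run only on genes of such a mean, the median was -0.04, and 502 genes were called higher and 190 lower. The shares and the median over all tested genes thus include genes of lower level than most of the 7.

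**Figure D1:**
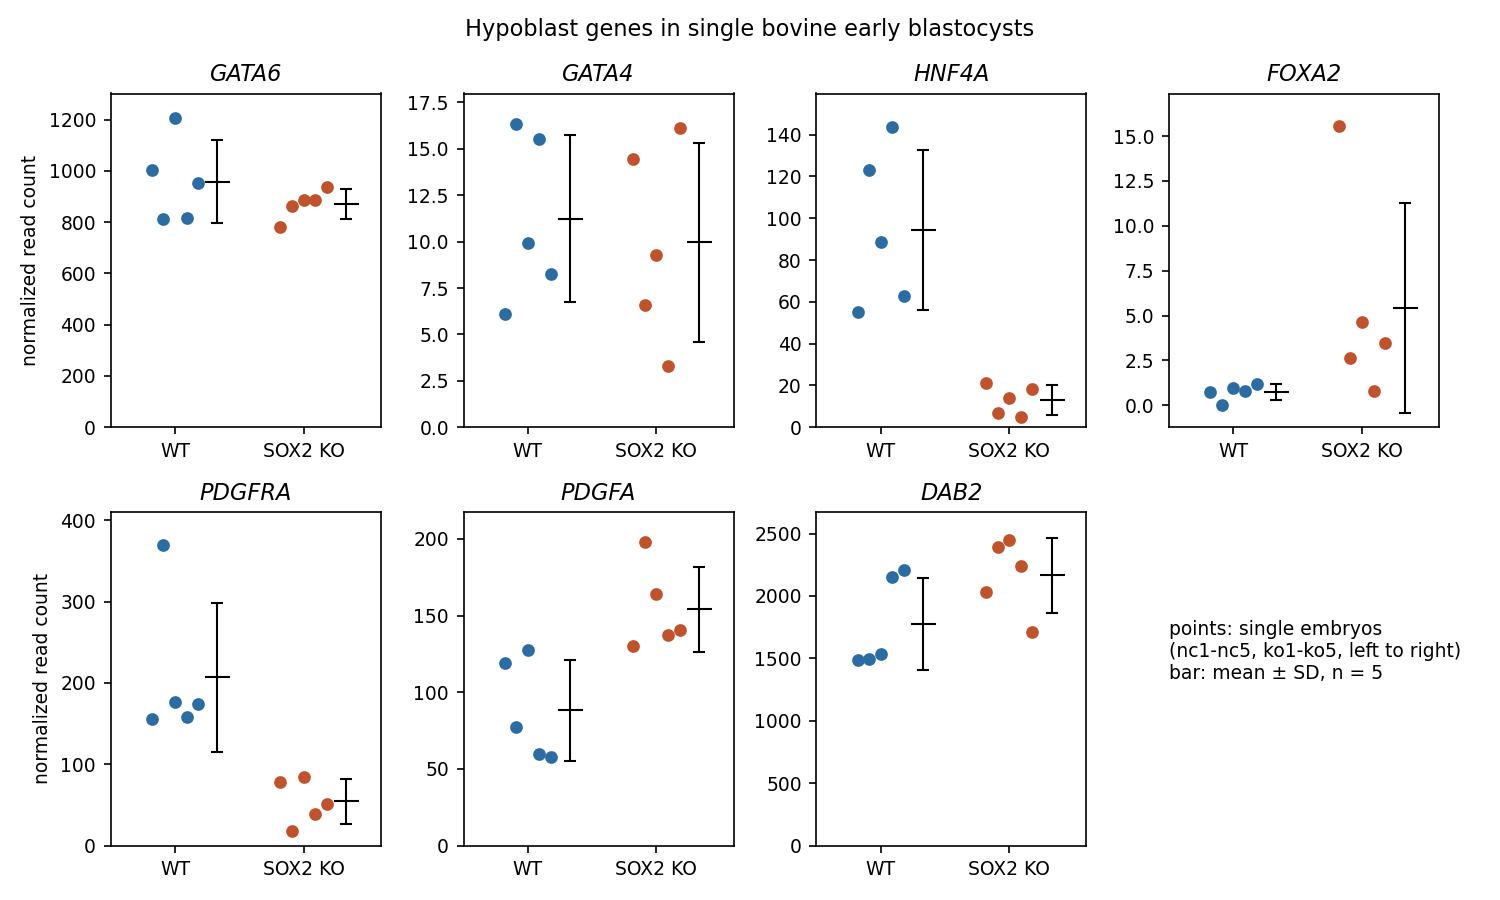
Normalized read counts of the 7 hypoblast genes in single embryos, with 1 panel per gene and its own linear axis; each point is 1 embryo and the bar is the mean ± SD of 5 embryos. The WT and *SOX2* KO points do not overlap for *HNF4A*, *PDGFRA* and *PDGFA*, and they overlap for *GATA6*, *GATA4*, *FOXA2* and *DAB2*.

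*GATA6* encodes a zinc finger factor that acts at the start of the hypoblast programme. It was 1003, 811, 1207, 818 and 952 normalized read counts in the 5 WT embryos and 781, 864, 886, 885 and 939 in the 5 *SOX2* KO embryos. All *SOX2* KO values lay within or just under the WT range, and the lowest value of the 10 belonged to a *SOX2* KO embryo. The means were 958 ± 162 in WT and 871 ± 57.5 in *SOX2* KO embryos (SD, n = 5 each). The log2 fold change was -0.12 (SE 0.15, 95% interval -0.43 to 0.18) with a limma adjusted p of 0.584. These counts rest on 5741 reads in WT and 4008 in *SOX2* KO embryos. The interval leaves room for a fall to 0.740-fold and for a rise to 1.14-fold, and not for a 2-fold change.

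*GATA4*, a relative of *GATA6* that is switched on later in mouse hypoblast, was counted at 6.11, 16.3, 9.94, 15.5 and 8.26 in WT and at 14.5, 6.60, 9.30, 3.29 and 16.1 in *SOX2* KO embryos. The groups overlapped, and embryo ko4 lay under the WT range at 3.29. The log2 fold change was -0.24 (SE 0.47, 95% interval -1.22 to 0.74; limma, adjusted p = 0.755). Only 63 reads in WT and 44 in *SOX2* KO embryos stood behind it, with 4 to 20 reads per embryo. A 2-fold fall was therefore not excluded at this depth, and the sign of the difference turned without embryo ko4, to 0.055.

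*HNF4A*, a nuclear receptor that drives apolipoprotein and other visceral endoderm genes, was the member with the largest difference between the groups. Its values were 54.9, 123, 88.5, 144 and 62.6 in WT and 21.2, 6.60, 14.0, 4.93 and 18.4 in *SOX2* KO embryos. The highest *SOX2* KO embryo lay under the lowest WT embryo. The mean fell from 94.6 ± 38.3 to 13.0 ± 7.13 (SD, n = 5 each), a log2 fold change of -2.85 (SE 0.37; limma, adjusted p = 9.09e-05). On the scale of log2(normalized read count + 1) this is 7.22-fold lower, with a 95% interval from 4.22 to 12.4. The 5 *SOX2* KO embryos still held 19, 5, 12, 6 and 16 reads, all above the floor, against 72 to 185 reads in WT embryos. Over the 12 other settings the log2 fold change stayed between -3.34 and -2.48, and it was -3.34 with the *RN18S1* share as a covariate. In whole embryos, fewer cells of a type and less RNA per cell cannot be told apart, here and for all genes below.

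*FOXA2*, a forkhead factor of definitive and visceral endoderm, was near the floor. It had 1, 0, 1, 1 and 2 reads in the WT embryos and 14, 2, 4, 1 and 3 reads in the *SOX2* KO embryos. Normalized, these are 0.763, 0, 0.994, 0.777 and 1.18 in WT and 15.6, 2.64, 4.65, 0.821 and 3.46 in *SOX2* KO embryos. Embryo ko1 held most of the *SOX2* KO reads, and ko4 lay inside the WT range. The log2 fold change of 1.53 (SE 0.59) did not pass the test (limma, adjusted p = 0.0810). Without embryo ko4 it passed at 1.89 (limma, adjusted p = 0.0248), and over the settings that kept the gene the value ran from 0.55 to 2.75.

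*PDGFRA*, the receptor tyrosine kinase of hypoblast precursors, was 156, 369, 177, 159 and 174 in WT and 77.9, 18.5, 84.9, 39.4 and 50.7 in *SOX2* KO embryos. Every *SOX2* KO embryo lay under every WT embryo, and embryo nc2 stood above the 4 other WT embryos. The mean fell from 207 ± 91.2 to 54.3 ± 27.4 (SD, n = 5 each), a log2 fold change of -2.01 (SE 0.32; limma, adjusted p = 0.000709). This is 4.02-fold lower, with a 95% interval from 2.51 to 6.41. Without embryo nc2 the log2 fold change was -1.78. Reads added up to 1130 in WT and 249 in *SOX2* KO embryos. With the *RN18S1* share as a covariate the value was -2.14 (limma, adjusted p = 0.0140), the highest adjusted p of the 12 other settings.

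*PDGFA*, the ligand of *PDGFRA*, moved the other way. Its values were 119, 77.1, 127, 59.8 and 57.8 in WT and 130, 198, 164, 137 and 141 in *SOX2* KO embryos. The groups did not overlap, but embryos nc3 and ko1 lay next to each other. The mean was 88.2 ± 32.9 in WT and 154 ± 27.7 in *SOX2* KO embryos (SD, n = 5 each). The log2 fold change of 0.86 (SE 0.23; limma, adjusted p = 0.0187) corresponds to 1.81-fold, with a 95% interval from 1.31 to 2.51, which is under the 2-fold limit of a call. Of the 22 settings tried, 2 took the adjusted p above the threshold. It was 0.309 in limma with the *RN18S1* share as a covariate, at a log2 fold change of 0.62, and 0.0527 without embryo nc4.

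*DAB2* links cargo receptors to clathrin and is needed for the order of the primitive endoderm layer in mice. It was 1484, 1495, 1533, 2148 and 2208 in WT and 2030, 2395, 2450, 2243 and 1709 in *SOX2* KO embryos. WT embryos fell into 3 lower and 2 higher values. Embryos ko1 and ko5 lay between these, and ko2, ko3 and ko4 lay above all WT embryos. The means were 1774 ± 370 and 2166 ± 303 (SD, n = 5 each), with a log2 fold change of 0.30 (SE 0.17, 95% interval -0.06 to 0.66; limma, adjusted p = 0.234). Set against the median of all tested genes, 0.25, the difference was 0.05. That median was -0.04 over genes with a mean of at least 10, to which *DAB2* belongs.

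Reads of 1 hypoblast gene per 100 reads of another were then compared within each embryo, where the scaling between embryos cancels. The pairs were chosen after the values were seen, and the ratios are descriptions without a test. *HNF4A* had between 5.48 and 17.6 reads per 100 *GATA6* reads in WT embryos and between 0.557 and 2.71 after *SOX2* KO. For *PDGFRA* the ratio to *GATA6* lay between 14.7 and 45.5 in WT embryos and between 2.14 and 9.99 after *SOX2* KO. *PDGFA* had between 6.08 and 11.9 reads per 100 *GATA6* reads in WT embryos, and its range of 15.0 to 22.9 after *SOX2* KO lay above these. None of these 3 ratios overlapped between the groups, whereas those of *GATA4* and *DAB2* to *GATA6* did. Ligand and receptor reads did not overlap either, with between 20.9 and 76.5 *PDGFA* reads per 100 *PDGFRA* reads in WT embryos and between 167 and 1071 after *SOX2* KO. *HNF4A* and *PDGFRA*, which both fell, overlapped in their ratio to each other, at 33.3 to 90.7 *HNF4A* reads per 100 *PDGFRA* reads in WT embryos against 12.5 to 36.4 after *SOX2* KO.

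*HNF4A* and *GATA4* varied together from embryo to embryo inside each group. Per 100 *GATA4* reads, the WT embryos held 900, 755, 890, 925 and 757 *HNF4A* reads and the *SOX2* KO embryos 146, 100, 150, 150 and 114. The ratio was therefore 845 ± 82.7 in WT and 132 ± 23.4 in *SOX2* KO embryos (SD, n = 5 each). After subtracting the mean of each group from log2(normalized read count + 1), Pearson's r between both genes was 0.96 and Spearman's rho 0.93 over the 10 embryos. Of the 11333 genes whose mean was 10 or more, *GATA4* was the one with the highest r to *HNF4A*, followed by *BNC2* at 0.94. In turn, *BBS9* and *ZSWIM4*, both at 0.965, were slightly nearer to *GATA4* than *HNF4A* was, at 0.963. *HNF4A* and *GATA4* share each embryo's library and size factor, and 4 to 20 reads of *GATA4* per embryo limit the estimate. No other pair of the 7 genes reached an r of that size. *PDGFA* and *GATA6* followed at 0.65, *HNF4A* and *PDGFRA* at 0.63, *HNF4A* and *FOXA2* at 0.54 and *GATA4* and *PDGFRA* at 0.52, and *PDGFA* against *PDGFRA* was -0.28.

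**Figure D2:**
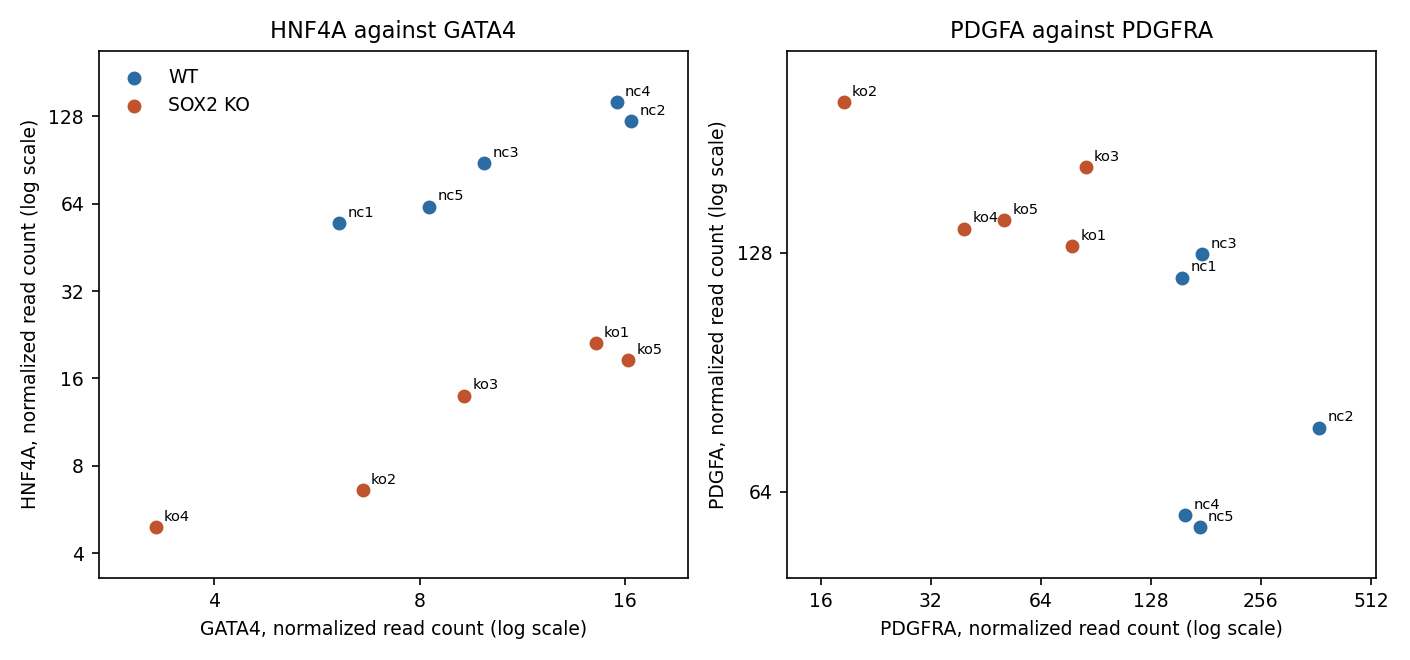
*HNF4A* against *GATA4* and *PDGFA* against *PDGFRA* in normalized read counts, both axes on a log scale, with 1 labelled point per embryo. In the first panel the WT and *SOX2* KO points form parallel rows at overlapping spans of *GATA4*, with ko4 lowest. In the second panel all *SOX2* KO points lie up and to the left of the WT points.

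The same search was made for the other hypoblast genes whose mean reached 10, by the highest Pearson's r of the group-centred values over 10 embryos. *INTS1* at 0.97 and *FBRS* at 0.96 were nearest to *GATA6*, and *BBS9* and *ZSWIM4*, both at 0.96, to *GATA4*. *RPS6KA5* at 0.95 and *RECK* at 0.91 were nearest to *PDGFRA*, and *ADAP1* at 0.96 and *MGAT4B* at 0.92 to *PDGFA*. *C22H3orf14* at 0.96 and *ATAD2* at 0.95 were nearest to *DAB2*. With 11333 genes searched over 10 embryos, values of this size describe these libraries and carry no test.

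The spread between embryos of 1 group also differed among the 7 genes. *PDGFRA* had an SD of 0.52 on the log2 scale in WT and 0.86 in *SOX2* KO embryos, against medians of 0.26 and 0.36 over genes within 2-fold of its level. Its WT spread came largely from embryo nc2, at 369 against 156 to 177 in the other WT embryos. For *HNF4A* the SD was 0.59 in WT, against 0.31 for genes of its level, and 0.84 in *SOX2* KO embryos, against 0.75. *PDGFA* varied with an SD of 0.53 in WT, against 0.32, and 0.24 in *SOX2* KO embryos, against 0.28. *GATA6* was the steadiest in *SOX2* KO embryos, with an SD of 0.097, against 0.25 for genes of its level. *GATA4* and *DAB2* lay close to genes of their level or below them in both groups, apart from 0.293 against 0.288 for *DAB2* in WT.

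Other regulators of the hypoblast did not move as 1 block. Of the 6 tested genes, 1 was called higher and 1 lower, against 8.93% and 1.16% of all genes, and the median log2 fold change was 0.36. *OTX2*, a homeobox factor of anterior visceral endoderm and epiblast, was 293, 356, 293, 341 and 308 in WT and 66.8, 25.1, 55.8, 89.5 and 119 in *SOX2* KO embryos. It fell without overlap (limma, log2 fold change -2.31, SE 0.28, adjusted p = 4.01e-05). *BMP2*, a signal sent by the hypoblast, rose from 8.02 ± 5.83 to 25.8 ± 12.3 (limma, log2 fold change 1.65, adjusted p = 0.0254) and lost its call in 8 of 22 other settings. *SOX7*, *HHEX*, *RSPO3* and *FGFR2* did not pass, and *SOX17* was not analysed here. *SOX7* had 4 reads in the 5 WT embryos together and 13 in the *SOX2* KO embryos, which is too few to compare.

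Among the 12 basement membrane genes, 1 was called higher and 2 lower, against 8.93% and 1.16% of all genes, and the median log2 fold change was 0.58. *NID1*, which encodes the laminin and collagen IV linker nidogen, was 33.6, 303, 103, 97.1 and 140 in WT and 8.91, 6.60, 18.6, 1.64 and 13.8 in *SOX2* KO embryos. It fell in all *SOX2* KO embryos to under the lowest WT value (limma, log2 fold change -3.60, SE 0.51, adjusted p = 0.000210). The *SOX2* KO embryos held 43 *NID1* reads together, with 2 in ko4, which is at the floor, against 714 in WT embryos. *SPARC*, a collagen-binding matrix protein made in abundance by parietal endoderm, was 1063, 973, 924, 644 and 1047 in WT and 444, 219, 174, 357 and 468 in *SOX2* KO embryos. It fell as well (limma, log2 fold change -1.56, SE 0.23, adjusted p = 0.000343). *HSPG2*, which encodes the heparan sulfate proteoglycan perlecan, rose from 58.9 ± 46.5 to 169 ± 45.3, with embryo nc3 inside the *SOX2* KO range (limma, log2 fold change 1.72, adjusted p = 0.00276). *LAMA5* and *LAMB1*, which encode laminin chains, passed the adjusted p at log2 fold changes of 0.65 and 0.71 but not the fold limit. The laminin gene *LAMC1* and the collagen IV genes *COL4A1* and *COL4A2* were not called.

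Of 10 tested genes of endodermal uptake and secretion, 4 were called higher, against 8.93% of all genes, and 1 was called lower, against 1.16%, with a median log2 fold change of 1.46. *LRP2*, the megalin receptor, was 3206, 2775, 2499, 2092 and 2669 in WT and 5621, 5155, 5519, 5270 and 7431 in *SOX2* KO embryos. It rose without overlap (limma, log2 fold change 1.13, SE 0.18, adjusted p = 0.000624). *APOA1*, the main apolipoprotein of HDL, rose from 233 ± 120 to 699 ± 114, also without overlap (limma, log2 fold change 1.71, SE 0.25, adjusted p = 0.000272). *RBP4*, the plasma carrier of retinol, rose from 12.5 ± 11.1 to 56.1 ± 25.9 (limma, log2 fold change 2.70, adjusted p = 0.0122). *APOB* rose from 1.77 ± 1.36 to 13.0 ± 10.8 at the edge of the threshold (limma, log2 fold change 2.06, adjusted p = 0.0426) and lost its call in 10 of 20 settings. *APOE* was 7.63, 8.90, 43.8, 3.89 and 39.5 in WT and 4.45, 0, 2.33, 0 and 1.15 in *SOX2* KO embryos. It was the single gene of the group that fell (limma, log2 fold change -2.85, SE 0.67, adjusted p = 0.0107), with 7 reads left in the *SOX2* KO embryos.

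**Figure D3:**
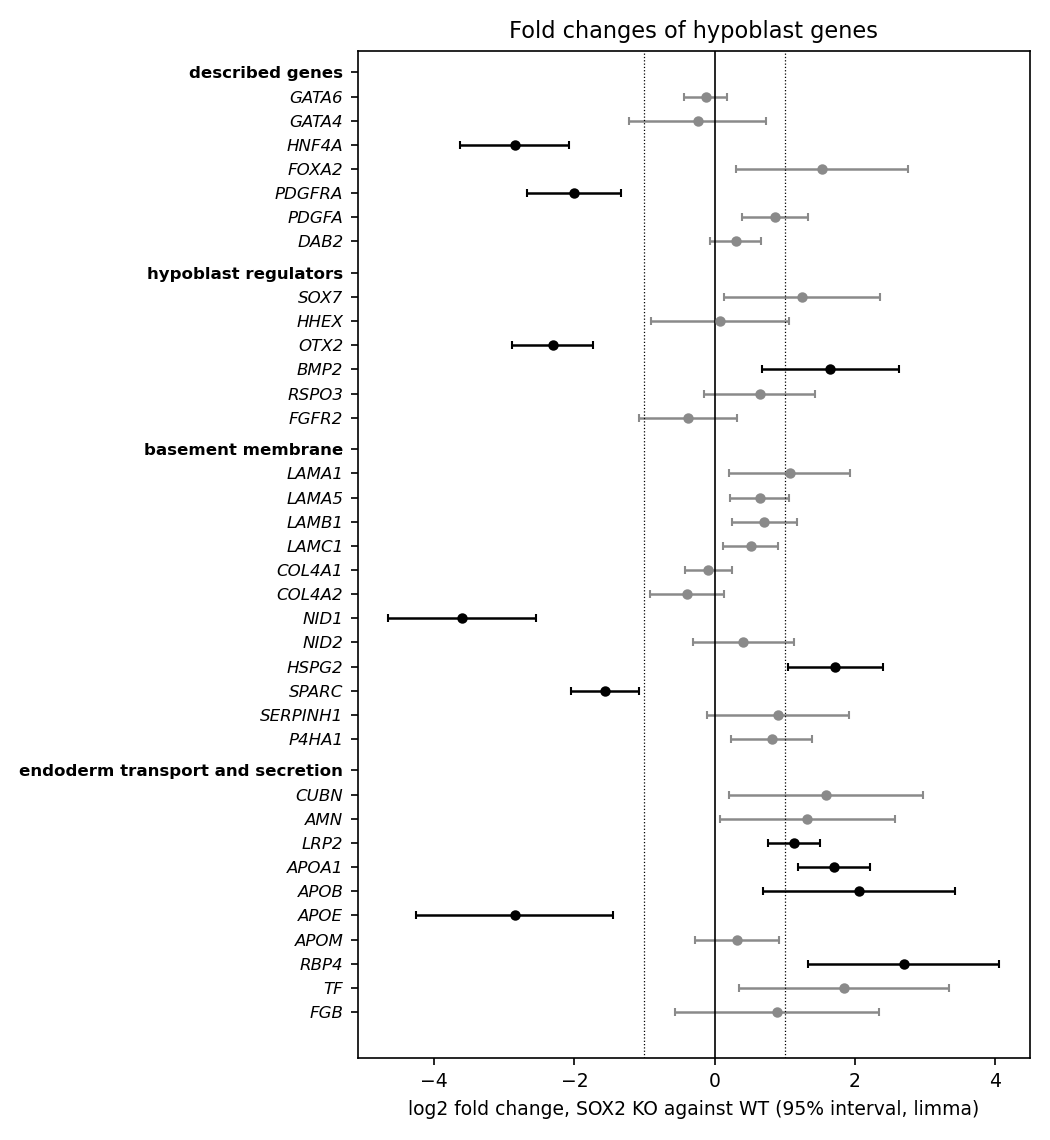
Log2 fold change of *SOX2* KO against WT with its 95% interval from limma for the hypoblast genes described and 3 related lists; black marks are called genes, grey marks are not called, and dotted lines mark 2-fold. *HNF4A*, *PDGFRA*, *OTX2*, *NID1*, *SPARC* and *APOE* lie to the left of the lower line and 6 called genes to the right of the upper line.

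Downstream of the PDGF receptor, and among the other ligands and receptors of this family, 1 of 10 tested genes was called, a share near the 10.1% of all genes, and the median log2 fold change was -0.10. *PDGFRB*, the sister receptor, was 4.58, 2.97, 9.94, 0 and 0.590 in WT and 18.9, 18.5, 6.98, 5.75 and 19.6 in *SOX2* KO embryos. It was called higher on these low counts (limma, log2 fold change 2.03, SE 0.63, adjusted p = 0.0378), the opposite direction to *PDGFRA*, and lost its call in 10 of 20 settings. *PDGFB*, a ligand that binds both receptors, was 34.9 ± 14.2 in WT and 59.6 ± 20.3 in *SOX2* KO embryos and did not pass (limma, log2 fold change 0.81, adjusted p = 0.0869). The adaptors and enzymes *SOS1*, *GRB2* and *PTPN11* had log2 fold changes of -0.22, -0.32 and -0.16 and did not pass either.

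FGF signalling through MAPK directs inner cell mass cells to the hypoblast in mouse and bovine embryos. Of 12 tested genes, 1 was called higher and 2 lower, against 8.93% and 1.16% of all genes, with a median log2 fold change of 0.19. *SPRY2* and *SPRY4*, feedback inhibitors that FGF signalling induces, both fell. The FGF-induced genes *DUSP6*, *ETV5* and *ETV4* had log2 fold changes of 0.70, 1.04 and 0.14 and were not called. *SPRY2* was 48.8, 77.1, 33.8, 69.9 and 72.0 in WT and 24.5, 7.92, 18.6, 38.6 and 16.1 in *SOX2* KO embryos (limma, log2 fold change -1.57, SE 0.35, adjusted p = 0.00792). *SPRY4* fell from 35.6 ± 17.3 to 10.8 ± 5.60 without overlap (limma, log2 fold change -1.68, SE 0.45, adjusted p = 0.0205). *MAPK3*, which encodes the kinase ERK1, rose from 35.6 ± 11.4 to 85.3 ± 28.4 (limma, log2 fold change 1.22, adjusted p = 0.00908). *FGFR4* passed the adjusted p at a log2 fold change of -0.62 but not the fold limit, and *FGFR2*, *FGFR1* and *FGFR3* were not called.

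Paralogs of the hypoblast genes gave 2 calls among 10 tested, both upward, against 8.93% of all genes, with a median log2 fold change of 0.50. *GATA5*, an endodermal GATA factor, was 5.34, 7.42, 10.9, 2.33 and 1.77 in WT and 7.79, 22.4, 25.6, 31.2 and 34.6 in *SOX2* KO embryos. It rose (limma, log2 fold change 2.01, SE 0.50, adjusted p = 0.0141) while *GATA4* and *GATA6* did not pass. *PDGFRB* was the other. *GATA2* and *GATA3*, which serve the trophectoderm, did not pass. Around *DAB2*, 2 of 10 genes of receptor endocytosis were called, both higher, against 8.93% of all genes, with a median of 0.67. *LRP2* was one of them, and *LRP1*, a related lipoprotein receptor, rose from 23.7 ± 6.48 to 72.2 ± 18.3 (limma, log2 fold change 1.57, SE 0.27, adjusted p = 0.00126). *MYO6*, the motor that *DAB2* recruits, passed the adjusted p at 0.67 but not the fold limit. Clathrin heavy chain *CLTC* and the adaptor subunit *AP2B1* were not called.

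Some calls among the related genes were lost without single embryos or with the share of *RN18S1* as a covariate. The call of *BMP2* was lost without nc2, nc4, ko1, ko2 or ko3. *APOB* was not called without any of nc1, nc2, nc4, nc5, ko1, ko3 or ko5, nor *PDGFRB* without any of nc2, nc4, nc5, ko1, ko2 or ko5. *SPRY4* lost its call without nc2 or nc5, and *GATA5* without ko5. The epiblast gene *KLF17* lost its call without nc4, nc5, ko3 or ko5. With the covariate, none of these 6 genes was called, nor were *HSPG2*, *RBP4*, *APOE*, *MAPK3*, *SPRY2*, *LRP1*, *NANOG* and the trophectoderm gene *ELF3*. Their signs stayed, and the size of the log2 fold change grew only for *BMP2* (from 1.65 to 1.99) and *APOE* (from -2.85 to -3.27). The size shrank slightly for *SPRY4* (from -1.68 to -1.61) and *LRP1* (from 1.57 to 1.38). It shrank more for *MAPK3* (from 1.22 to 0.84) and *RBP4* (from 2.70 to 1.56). The size also shrank for all the others, namely *APOB*, *PDGFRB*, *GATA5*, *KLF17*, *HSPG2*, *SPRY2*, *NANOG* and *ELF3*. *HNF4A*, *PDGFRA*, *OTX2*, *NID1*, *SPARC*, *LRP2* and *APOA1* were called under all 22 settings.

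**Figure D4:**
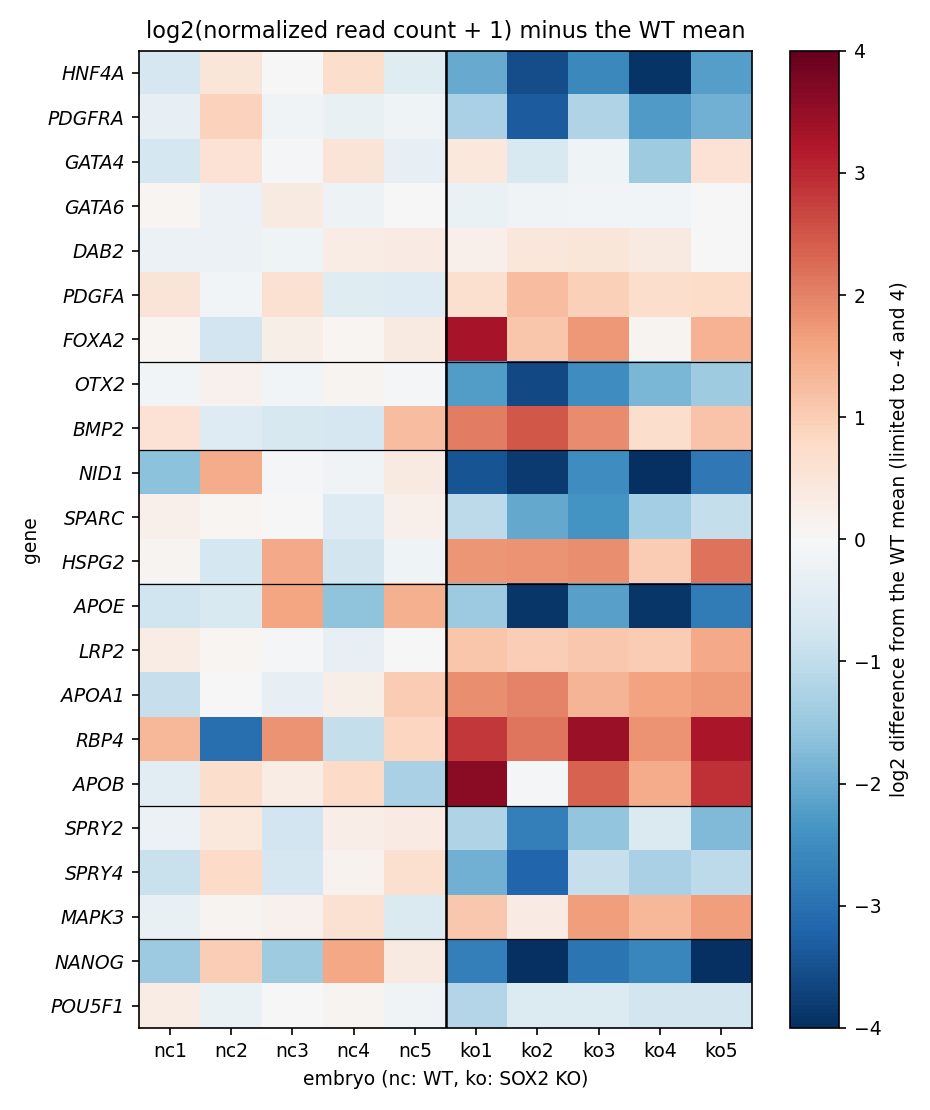
Difference of log2(normalized read count + 1) from the WT mean for the 7 hypoblast genes, some called genes of the related lists, *NANOG* and *POU5F1* in each of the 10 embryos. Red is higher, blue is lower, and colours stop at -4 and 4. Not drawn are *PDGFRB*, *GATA5*, *LRP1* and further called markers of other cell types. *HNF4A* and *PDGFRA* are blue in all 5 *SOX2* KO embryos together with *OTX2*, *NID1*, *SPARC* and *NANOG*, while *GATA6* and *DAB2* stay pale.

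Markers of other cell types were read beside these results. Of 9 epiblast markers, *SOX2* included, 4 were called lower, against 1.16% of all genes. These were *NANOG*, *KLF17*, *PRDM14* and *DPPA3*. The summed level of the list lay between 2180 and 2699 in WT embryos and between 1070 and 1412 after *SOX2* KO. Most of this sum was *POU5F1* and *DPPA3*, with WT means of 1212 and 717. *NANOG* was 17.6, 101, 17.9, 148 and 64.9 in WT and 6.68, 0, 5.81, 7.39 and 1.15 in *SOX2* KO embryos (limma, log2 fold change -3.70, SE 0.64, adjusted p = 0.00127). *POU5F1* was 1212 ± 188 in WT and 723 ± 118 in *SOX2* KO embryos (limma, log2 fold change -0.75, adjusted p = 0.00631) and was not called, as it missed the fold limit. Of 12 trophectoderm markers, 2 were called higher, *ELF3* and *SFN*, against 8.93% of all genes. Under the fold limit, *KRT18* passed the adjusted p upward (limma, log2 fold change 0.73, adjusted p = 0.0394). *TFAP2C* passed it downward (limma, log2 fold change -0.49, adjusted p = 0.0352), and the other markers did not pass. The summed level of the list lay between 25856 and 38275 in WT embryos and between 36149 and 49726 after *SOX2* KO. Most of this sum was *KRT8* and *KRT18*, with WT means of 17496 and 9100. Of 9 markers of cumulus cells, the somatic cells around the oocyte, none was called in limma, all 9 had a log2 fold change above 0 there (*FSHR* was below 0 in edgeR) and 2 had an unadjusted p under 0.05. *CYP11A1* was 1.78 higher on the log2 scale in limma (adjusted p = 0.196) and was called in edgeR at 2.35 (adjusted p = 0.0150), in edgeR with filterByExpr at 2.50 (adjusted p = 0.0389), with array quality weights at 2.45 (limma, adjusted p = 0.0190) and without ko4 at 3.17 (limma, adjusted p = 9.96e-05). The cumulus list had summed levels between 50.4 and 157 in WT embryos and between 88.7 and 475 after *SOX2* KO. Most of this sum in ko1, ko2, ko3 and ko5 was *CYP11A1*, at 402, 331, 359 and 228. *CYP11A1* was 1.64 in ko4 and between 14.8 and 83.9 in WT embryos. No marker of these lists was at 0 in every WT embryo. The part of these cell types in the results for the hypoblast genes was not tested.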

How the data were processed

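RNA of 5 WT and 5 *SOX2* KO bovine early blastocysts was sequenced singly with Smart-seq2, which primes on poly(A) and counts PCR copies as separate reads. The authors used Trimmomatic for trimming, HISAT2 for mapping to ARS-UCD1.2 and featureCounts for counting, and deposited a normalized signal, namely reads per gene over the size factor that DESeq2 gave each embryo. The annotation release, strand setting and treatment of reads shared between genes are not given in the sources used here, so reads of paralogs or overlapping genes may be shared. Whole reads were recovered within 0.001 reads for all 201120 values (100%), from the value that 1 read has in each embryo. The lowest total per gene was 11 reads. Columns were assigned to groups by name, since those of *SOX2* KO embryos carry other numbers than the labels.

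limma (version 3.58.1, with a trend, in R 4.3.3) was run on log2(normalized read count + 1) of 20056 genes whose mean over the 10 embryos was 1 or more, without covariates, with Benjamini-Hochberg adjustment over all of them. Fold changes are on this scale, where the added 1 shrinks those of low genes. They can still exceed those of the count tests, as for *RBP4* at 2.70 against 2.15 in DESeq2 and 1.99 in edgeR. All 7 hypoblast genes with a row passed the filter. The 12 other settings included count tests of the recovered reads in edgeR (version 4.0.16) and DESeq2 (version 1.42.0), and each of the 10 embryos was left out in turn. The test was also run on simulated counts in which 200 genes with a mean of 10 or more were changed, equally upward and downward. Changes of genes near the floor and a surplus of rises were not simulated, so the check says nothing on these. Embryos are treated as separate samples, and limma sets the difference between groups against the spread between embryos within a group. The parents and fertilization run of each embryo are not given in the sources used here, so their independence was assumed. Counting error sets a floor of precision, since the reads carry no molecular identifiers.

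The hypoblast genes and the lists were chosen with earlier results of these data known. Named from each list were the called genes and those with the highest means, and for each hypoblast gene the 2 genes with the most similar values. A few further list genes were named after their values were seen, and 1 gene of the lists is not reported here. Lists share *LRP2*, *CUBN*, *AMN*, *PDGFB*, *PDGFRB*, *FGFR2*, *GATA2* and *GATA3*. Gene order was taken from ARS-UCD2.0, which differs from the build of the files, so no coordinates are given.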

Additional observations from a re-analysis of the deposited data

Results flagged for a closer look

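In 7 of 106 groups of 5 embryos, 1 embryo stood apart from the other 4 by Dixon's test on log2(normalized read count + 1), where chance gives about 5.3. Among the hypoblast genes, *PDGFRA* was 369 in WT embryo nc2 against 156 to 177 in the other WT embryos. *FOXA2* was 0 in nc2 against 0.763 to 1.18, a gap of 1 read. In WT embryo nc4, *SPARC* was low at 644 against 924 to 1063, *PTPN11* was high at 636 against 450 to 472, and *STAR*, a cumulus cell marker, was low at 10.1 against 22.2 to 28.8. *LRP2* was 7431 in *SOX2* KO embryo ko5 against 5155 to 5621. *CYP11A1*, a steroidogenic enzyme on the cumulus list, was 1.64 in *SOX2* KO embryo ko4 against 228 to 402 in the other *SOX2* KO embryos. Their causes were not tested.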

How the results depend on the processing

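*HNF4A* and *PDGFRA* were called lower under all 12 other settings and without each embryo in turn. The log2 fold change of *GATA4* turned to 0.038 with array quality weights and ran from -0.45 to 0.055 without 1 embryo, that of *FOXA2* rose to a call at 1.64 with the weights (1.09 to 1.89 without 1 embryo), and that of *PDGFA* ran from 0.73 to 1.01, which is a call without nc3. Hypoblast genes called higher thus numbered 1 with the weights and 0 to 1 without 1 embryo. *FOXA2* was filtered out by a mean of at least 10 and by filterByExpr. All called genes numbered 2024, and 1185 with a pseudocount of 5, 692 with a mean of at least 10, 1076 after quantile normalization, 608 in edgeR with filterByExpr, 220 with the *RN18S1* share as a covariate, 3515 with the weights, and 930 (without ko5) to 3316 (without ko4) without 1 embryo. Of these, 629 were higher after quantile normalization, 502 with a mean of at least 10 and 441 with filterByExpr, against 1792. Listed genes called higher were 12, and 3 with the *RN18S1* covariate and 9 to 19 (without ko4) without 1 embryo, and 10 and 5 were called lower without and with that covariate. The median over all genes was 0.25, and 0.14 with equal totals, 0.34 with the median log ratio, -0.02 after quantile normalization and -0.04 with a mean of at least 10. Signs turned for *COL4A1* (0.014 with the median log ratio, 0.085 with *RN18S1*), *GATA3* (-0.16 with *RN18S1*), *AP2B1* (-0.043 with equal totals, -0.0035 in edgeR) and *FSHR* (-0.048 in edgeR, -0.32 with *RN18S1*, -0.18 to 0.66 without 1 embryo), none of them called. Of 22 called list genes, 8 were called in every setting that kept them. Their causes were not tested. No paired analysis was possible because columns ko1 to ko5 do not carry the replicate numbers of the labels, so the replicate block was not run. Few reads limit *GATA4*, *FOXA2*, *SOX7*, *PDGFRB*, *APOB* and *APOE*, among others.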

Other observations

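The genes next to the hypoblast genes were read as well, 2 protein-coding neighbours on each side in the gene order of ARS-UCD2.0. Of 28 neighbours, 23 were in the table and 4 were called, against 10.1% of all tested genes, and these 4 are named because of their values. *KIT*, the receptor of stem cell factor and the neighbour of *PDGFRA*, fell from 347 ± 59.5 to 71.4 ± 16.8 normalized read counts (SD, n = 5 each). WT embryos ranged from 288 to 416 and *SOX2* KO embryos from 52.3 to 93.6, without overlap (limma, log2 fold change -2.28, SE 0.19, adjusted p = 4.32e-07). *KDR*, the VEGF receptor on the far side of *KIT*, was 3.33 ± 3.91 in WT and 5.33 ± 3.60 in *SOX2* KO embryos and was not called. Next to *PDGFA*, *FAM20C*, a kinase of secreted proteins, rose from 20.0 ± 11.4 to 72.4 ± 23.9 (limma, log2 fold change 1.92, adjusted p = 0.00284). Next to *DAB2*, the prostaglandin receptor gene *PTGER4* rose on low counts from 0.507 ± 0.780 to 6.21 ± 2.80 (limma, log2 fold change 2.31, adjusted p = 0.00925), and *FYB1*, an adaptor of immune cells, rose from 30.0 ± 4.07 to 71.5 ± 24.5 (limma, log2 fold change 1.17, adjusted p = 0.00654). No neighbour of *HNF4A*, *GATA4*, *GATA6* or *FOXA2* was called, and no annotated gene overlapped any of the 7 hypoblast genes in ARS-UCD2.0.

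*ZSWIM4*, one of the genes most similar to *GATA4* across embryos, rose from 12.7 to 38.5 on average (limma, log2 fold change 1.48, adjusted p = 0.00585), whereas *GATA4* was not called. *ADAP1*, the gene most similar to *PDGFA*, also rose, from 45.2 to 89.2 (limma, log2 fold change 1.04, adjusted p = 0.0118).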
